A study of Homo sapiens with 24 samples.

Results

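Replication-dependent histone genes encode the core histones H2A, H2B, H3 and H4 and the linker histone H1, which are made in bulk when DNA is copied. Of 57820 genes in the count tables, 75 carried a name that begins with HIST1H, HIST2H, HIST3H or HIST4H and were taken as members. Before that, 14 such genes were left out because their names end as those of pseudogenes. The name rule kept HIST2H2BA, HIST2H2BC, HIST2H2BD and HIST3H2BA, which gene annotation marks as pseudogenes, and HIST2H2BB, which RefSeq marks so. They comprised 6 H1, 17 H2A, 23 H2B, 14 H3 and 15 H4 genes, 55 of them in the HIST1 cluster on chromosome 6. The study sequenced RNA of human osteosarcoma cells with and without the transcription regulator ID3 to ask how each genotype responds to mocetinostat, an inhibitor of class I histone deacetylases, and recovers from it. The 24 libraries formed 8 groups of 3 biological replicates. AID-DIvA U2OS cells, a U2OS derivative with an inducible nuclease for making DNA breaks, were wild type (WT) or ID3 knockout (KO), and were either untreated or exposed to mocetinostat for 24 h and then kept in drug-free medium for another 24 h ("recovered"). U2OS cells, also WT or KO, were untreated or treated, which was read as collection at the end of the 24 h of drug, before recovery. The cell line label therefore coincides with the stage, and line and stage cannot be told apart. In 12 libraries, those of AID-DIvA cells, title and treatment field contradict each other, and groups were set by title. Whether each KO line is 1 clone is not given in the sources used here, and ID3 transcripts were still counted in KO cells, at 34.7 ± 3.61 counts per 1000000 fragments (CPM) in untreated AID-DIvA KO cells against 50.4 ± 2.20 in WT cells, and at 30.6 ± 1.53 in untreated U2OS KO cells against 62.3 ± 15.9 in WT cells (SD, n = 3). In each line and treatment the KO libraries all lay under the WT libraries. Of 9 osteoblast and mesenchymal markers, RUNX2, COL1A1, SPARC and VIM were at 1 CPM or more in every library, whereas SP7, BGLAP and IBSP were under 1 CPM in all. Of 9 markers of other cell types, EPCAM and KRT18 reached 1 CPM in every library and 6 were under 1 CPM in all. The summed level of the first list was lower in every recovered or treated library (2224 to 3015 CPM) than in the untreated libraries of its line and genotype (3215 to 4669 CPM). That of the second list was higher in recovered AID-DIvA cells, at 126 to 138 CPM against 95.2 to 97.6 CPM untreated in WT cells and at 172 to 195 CPM against 113 to 121 CPM in KO cells, and its ranges overlapped in U2OS cells. The part of these shifts in the histone results was not tested.

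In most animal cells these genes have no introns, and their mRNAs end not in a poly(A) tail but at a short hairpin, the stem-loop, which is bound by SLBP and cut with the help of the U7 small nuclear ribonucleoprotein, to which LSM11 belongs. NPAT, which is phosphorylated by cyclin E with CDK2, drives their transcription at the start of S phase together with CASP8AP2, HINFP (for H4) and POU2F1 (for H2B). Several histone genes can also produce longer, polyadenylated transcripts, which are known from cells that have left the cycle or are differentiating. Histone deacetylases act on the proteins these genes encode.

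The stem-loop is shown first because the counted levels differed with where a gene model ends relative to it. It was placed in 67 of the 75 genes within 150 bases after the stop codon on the coding strand of GRCh37, as a stretch of 16 bases that opens with GG, ends with CC and has T at positions 6, 7 and 9 and A at position 11, counted from its 5′ end. The matches lay 22 to 67 bases after the stop codon and had 10 distinct sequences, of which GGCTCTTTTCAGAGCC was shared by 39 genes. The members named above as marked pseudogenes had no match. The hairpins of the genes described most often below are given 5′ to 3′, with the 6-base arms of the stem in capitals and the loop in lower case.
HIST1H2BK, chr6:27114145-27114160, minus strand: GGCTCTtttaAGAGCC
HIST1H1C, chr6:26055972-26055987, minus strand: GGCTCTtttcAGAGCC
HIST1H2AC, chr6:26124897-26124912, plus strand: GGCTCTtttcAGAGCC
HIST1H2AG, chr6:27101294-27101309, plus strand: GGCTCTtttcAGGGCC
HIST1H3E, chr6:26225824-26225839, plus strand: GGCTCTtctcAGAGCC
HIST1H4H, chr6:26285359-26285374, minus strand: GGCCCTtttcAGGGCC
HIST1H4C, chr6:26104545-26104560, plus strand: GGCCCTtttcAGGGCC
HIST1H4H and HIST1H4C carry the same hairpin. The gene model of HIST1H4H, however, continues 4076 bases past it, introns included, whereas that of HIST1H4C stops before it.

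Few of the histone genes were counted at an appreciable level. Together they received 391557 of the 1380524671 fragments counted in the 24 libraries, which held 37878751 to 76906266 fragments each. Of the 75 genes, 9 were at 0 in every library, 30 averaged above 0 and under 0.1 CPM, 19 lay from 0.1 to under 1 CPM, 11 from 1 to under 10 CPM and 6 at 10 CPM or more. A count of 0 over all libraries allows a level of up to 0.00217 CPM (3 counts of the total, counting error only). HIST1H2BK alone, an H2B gene, held 44.1% of the histone fragments, and the 5 highest genes held 81.6%.

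The level differed with the end of the gene model, as the annotation counted in the files places it. The gene models are those of the files, whose annotation version differs from the version the methods name. In 18 genes the model ran more than 100 bases past the stem-loop, and 12 of these averaged at least 1 CPM, with a median of 2.83 CPM, or 1.73 CPM per kilobase of exon. They held 79.4% of all histone fragments. In 49 genes the model ended within 100 bases of the stem-loop; 5 of these reached 1 CPM and their median was 0.0440 CPM, or 0.102 CPM per kilobase. The exception was HIST1H1C, a linker histone gene, whose model ends 4 bases past its stem-loop and which averaged 45.3 CPM. The other 48 held 3.70% of the histone fragments and none exceeded 1.46 CPM. HIST1H4C, chosen for its hairpin after its values were seen, averaged 0.131 CPM. Of the 18 longer models, 13 had a poly(A) signal (AATAAA or ATTAAA) in their last 60 bases.

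**Figure D1:**
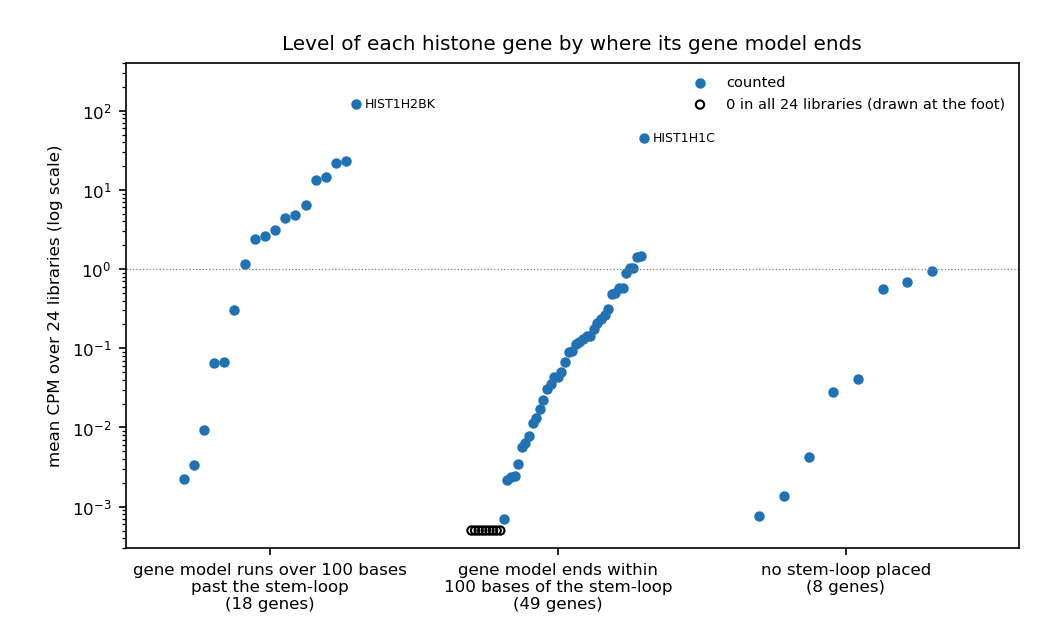
Mean CPM over 24 libraries (log axis) of each of the 75 histone genes, grouped by where the gene model ends relative to the stem-loop; points are genes, open circles at the foot are the 9 genes at 0 in every library, and the dotted line marks 1 CPM. HIST1H2BK (123 CPM) leads the 18 longer models and HIST1H1C (45.3 CPM) stands above the other 48 genes whose model ends near the stem-loop.

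The labels name a total RNA library kit, but other RNAs without a poly(A) tail were low as well. RN7SK, a nuclear RNA that controls transcription elongation, lay at 0.428 to 2.08 CPM over the 24 libraries, and RMRP, the RNA of a mitochondrial and nucleolar ribonuclease, at 0.0758 to 0.717 CPM. RPPH1, the RNA of ribonuclease P, lay at 0 to 0.387 CPM. RN7SL1, the RNA of the signal recognition particle, was higher, at 7.07 to 23.6 CPM. The part of RNA selection in the low histone levels was not tested. The near-identical sequences of the family can also cost counts: in 7 genes more than 90% of 100-base windows occur in another histone gene, and none of these 7 exceeded 0.567 CPM. Of the 53 genes without any shared window, 39 averaged under 1 CPM. Windows were matched exactly, and genes whose intervals overlap were not compared with each other. The part of shared sequence in the low levels was not tested. The levels below therefore describe mainly the 17 genes of at least 1 CPM, and whether their fragments came from transcripts that reach past the stem-loop was not tested.

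By level per kilobase of exon, HIST1H2BK led with a mean of 150 CPM per kilobase, followed by HIST1H1C with 61.9. HIST1H2BD, another H2B gene, had 14.95 CPM per kilobase, HIST1H2BJ 13.3, the H2A gene HIST1H2AC 13.1 and HIST2H2BE 10.4. The first H4 gene in that order was HIST1H4H with 4.66 CPM per kilobase, and HIST1H4I had 1.77. The highest H3 genes were HIST1H3H with 2.98 and HIST1H3E with 2.23, and the second H2A gene, HIST2H2AC, had 3.34. HIST1H1E, the second H1 gene, had 1.12. The longer models contain parts that shorter transcripts lack, so these values compare gene models rather than mRNA molecules.

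The summed level of the 75 genes was lower in recovered than in untreated AID-DIvA cells and was highest in treated KO cells, but HIST1H2BK carried much of this and the classes differed. In AID-DIvA WT cells the sum was 226 ± 11.7 CPM untreated and 199.9 ± 4.33 CPM recovered (SD, n = 3 per group). In AID-DIvA KO cells it was 308 ± 10.7 CPM untreated and 198 ± 7.11 CPM recovered. In U2OS WT cells the sum was 250.2 ± 33.2 CPM untreated and 296 ± 17.3 CPM treated, and the libraries of these groups overlapped. In U2OS KO cells it was 324 ± 3.07 CPM untreated and 434 ± 9.10 CPM treated. The 3 recovered KO libraries lay far below the 3 untreated KO libraries, and the recovered levels of the genotypes overlapped. Without HIST1H2BK the recovered genotypes did not overlap, with 105 to 111 CPM in WT and 119 to 123 CPM in KO cells. The means without it went from 120 (119.8) to 108 CPM in WT and from 160 (159.95) to 121 CPM in KO cells. HIST1H1C alone averaged 24.4 CPM in recovered WT and 49.2 CPM in recovered KO cells, a wider gap than that between these recovered means. The sum of the 6 H1 genes had a higher mean after recovery: it spanned 20.8 to 22.6 CPM untreated and 23.7 to 25.7 CPM recovered in WT cells, and 42.4 to 48.04 and 47.2 to 54.2 CPM in KO cells, where the groups overlapped. The sum of the 17 H2A genes was 32.3 ± 1.67 and 29.7 ± 1.25 CPM in WT cells and 35.0 ± 2.36 and 18.2 ± 2.15 CPM in KO cells. For the sum of all 75 genes, every untreated KO library was above every untreated WT library of its line. The large spread in untreated U2OS WT cells came from replicate 1, at 288 CPM against 229 and 233 CPM in the other two. That library stood apart across all genes: the chi-square of its counts against those of its group was 82.0 and 92.4 per gene, against 2.62 to 24.5 for all other pairs of replicates. Without it the untreated and treated U2OS WT libraries no longer overlapped in the sum. Counts of calls that rest on it, and the values of the genes named most, are also given without it.

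**Figure D2:**
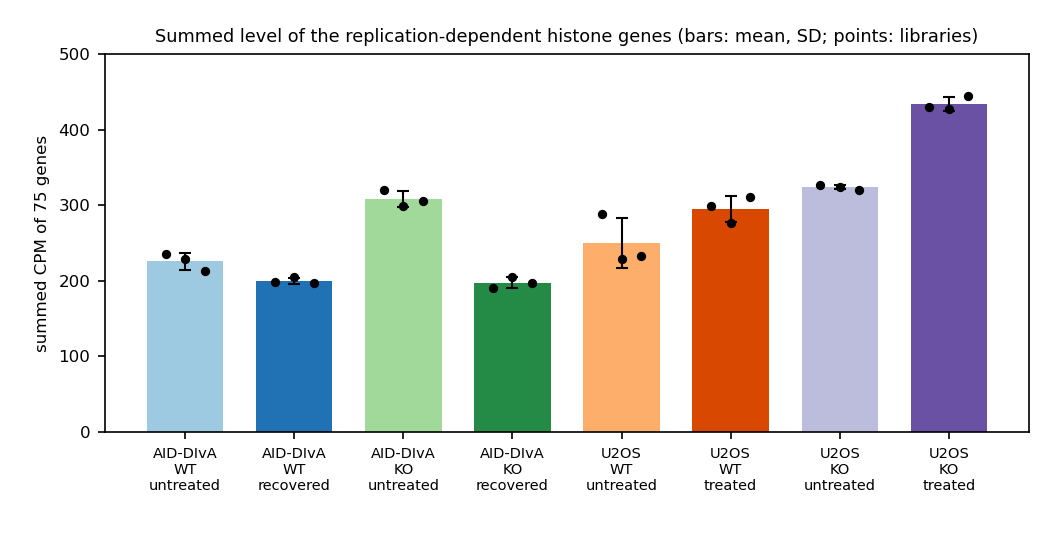
Summed CPM of the 75 histone genes in the 8 groups; bars are means, error bars SD over 3 libraries and points the libraries. Untreated KO cells lay above untreated WT cells, and treated U2OS KO cells reached 434 CPM. Recovered cells of both genotypes lay close together (means 199.9 in WT and 198 in KO cells). Without HIST1H2BK, which is not plotted apart, these means were 108 and 121, and HIST1H1C alone averaged 24.4 and 49.2 CPM.

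To see what remained of the drug response after recovery, recovered cells were compared with untreated cells of the same genotype. Of 29 histone genes that passed the filter on low counts in WT cells, 11 fell, 1 rose and 17 did not pass the test. DESeq2 called 4 lower, and edgeR called 6 lower with untreated replicate 2 left out and 7 with untreated replicate 1 left out. A gene was called where its p, adjusted by Benjamini-Hochberg over all genes tested, was under 0.05 in the quasi-likelihood fit of edgeR, and this holds for every comparison here. Of all 20289 genes tested, 23.0% fell and 23.9% rose. In KO cells 14 of 31 histone genes fell and none rose, beside 19.9% of 20362 genes that fell and 20.2% that rose. No histone gene rose in KO cells at an unadjusted p below 0.05 or with DESeq2 either. The median log2 change of the tested histone genes was -0.44 in WT and -0.61 in KO cells, while the median of all tested genes was -0.00050 and -0.02. The 11 genes that fell in WT and the 14 that fell in KO cells had 8 in common, among them HIST2H2BD, which is marked as a pseudogene. The share of all genes that fell in both genotypes is not given, so this overlap was not set against it.

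HIST1H2AG (ENSG00000196787.2, chromosome 6, 27100832 to 27103070 on GRCh37), an H2A gene whose model runs 1761 bases past its stem-loop, fell in both genotypes. In WT cells it lay at 7.45, 7.04 and 6.58 CPM untreated and at 3.01, 2.69 and 3.02 CPM recovered. In KO cells it lay at 7.78, 7.74 and 6.76 CPM untreated and at 2.62, 2.76 and 2.41 CPM recovered. The groups did not overlap in either genotype, and the log2 change was -1.26 (SE 0.10, adjusted p = 2.1e-07, edgeR) in WT and -1.51 (SE 0.10, adjusted p = 3.6e-06, edgeR) in KO cells. HIST1H3H, an H3 gene whose model ends 5 bases past its stem-loop, fell by 0.55 in WT and by 0.90 in KO cells on the log2 scale. HIST2H2BE (chromosome 1), an H2B gene whose model runs 1728 bases past its stem-loop, fell by 0.50 in WT and by 0.62 in KO cells.

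HIST1H2AG and HIST1H2BJ, an H2B gene, start back to back and point away from each other, so they share the sequence between their starts. It is shown because HIST1H2AG was called lower in recovered WT cells and HIST1H2BJ was not, although both were in KO cells. The changes of the pair were not tested against each other. It runs 5′ to 3′ on the plus strand of GRCh38.p14 (RefSeq), chr6:27132796-27133042, from the last base before the HIST1H2BJ start to the last base before the HIST1H2AG start. Capitals mark matches on either strand to 4 motifs: the octamer ATTTGCAT bound by POU2F1, CCAAT bound by NFY, the TATA box TATAAA and TTTNGCGC, a form of the E2F site.
HIST1H2BJ and HIST1H2AG: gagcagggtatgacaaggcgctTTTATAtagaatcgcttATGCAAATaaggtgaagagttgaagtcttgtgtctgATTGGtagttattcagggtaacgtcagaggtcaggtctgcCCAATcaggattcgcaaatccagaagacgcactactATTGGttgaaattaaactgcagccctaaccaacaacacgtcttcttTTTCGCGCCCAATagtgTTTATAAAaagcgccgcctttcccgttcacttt
The octamer and a TATA box lie near the HIST1H2BJ start, and the E2F form and the other TATA boxes near the HIST1H2AG start, where the E2F match adjoins a CCAAT. HIST1H2BJ lay at 13.1, 12.7 and 12.1 CPM in untreated WT cells and at 11.5, 10.6 and 11.8 CPM after recovery. The log2 change of -0.15 (SE 0.07) did not pass the test (adjusted p = 0.099, edgeR). In KO cells it lay at 16.8, 15.2 and 15.3 CPM untreated and at 8.86, 9.22 and 9.02 CPM recovered, without overlap, a log2 change of -0.80 (SE 0.08, adjusted p = 4.1e-05, edgeR).

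HIST1H2BK (ENSG00000197903.6, chromosome 6, 27106073 to 27114619), whose model continues 8072 bases past the stem-loop through an intron, fell much more in KO than in WT cells. In WT cells it lay at 111, 108 and 98.4 CPM untreated and at 93.4, 93.8 and 88.3 CPM recovered. In KO cells it lay at 158, 142 and 144 CPM untreated and at 71.0, 82.0 and 77.3 CPM recovered. Every recovered library was below every untreated library of its genotype, with log2 changes of -0.20 (SE 0.05) in WT and -0.95 (SE 0.08) in KO cells. HIST1H2AC (ENSG00000180573.8, chromosome 6, 26124373 to 26139344) lay at 23.7, 22.0 and 20.2 CPM in untreated and at 23.8, 26.0 and 23.7 CPM in recovered WT cells. In KO cells it lay at 26.4, 22.8 and 22.7 CPM untreated and at 10.8, 14.5 and 13.1 CPM recovered. It thus fell in KO cells (log2 change -0.89, SE 0.12) and had a log2 change of 0.16 (SE 0.07, adjusted p = 0.066, edgeR) in WT cells. HIST1H4H, which encodes H4, changed by -0.78 in KO cells.

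HIST1H1C (ENSG00000187837.2, chromosome 6, 26055968 to 26056699) rose in recovered WT cells, the single histone gene called higher there with all libraries. It lay at 21.1, 22.1 and 20.1 CPM untreated and at 23.4, 25.2 and 24.5 CPM recovered. The log2 change was 0.22 (SE 0.06, adjusted p = 0.0090, edgeR). It was 0.18 and no longer passed when untreated replicate 3 was left out (adjusted p = 0.060, edgeR), and leaving out replicate 1 of either group gave 2 histone genes that rose. In KO cells its log2 change of 0.15 (SE 0.07) did not pass the test.

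**Figure D3:**
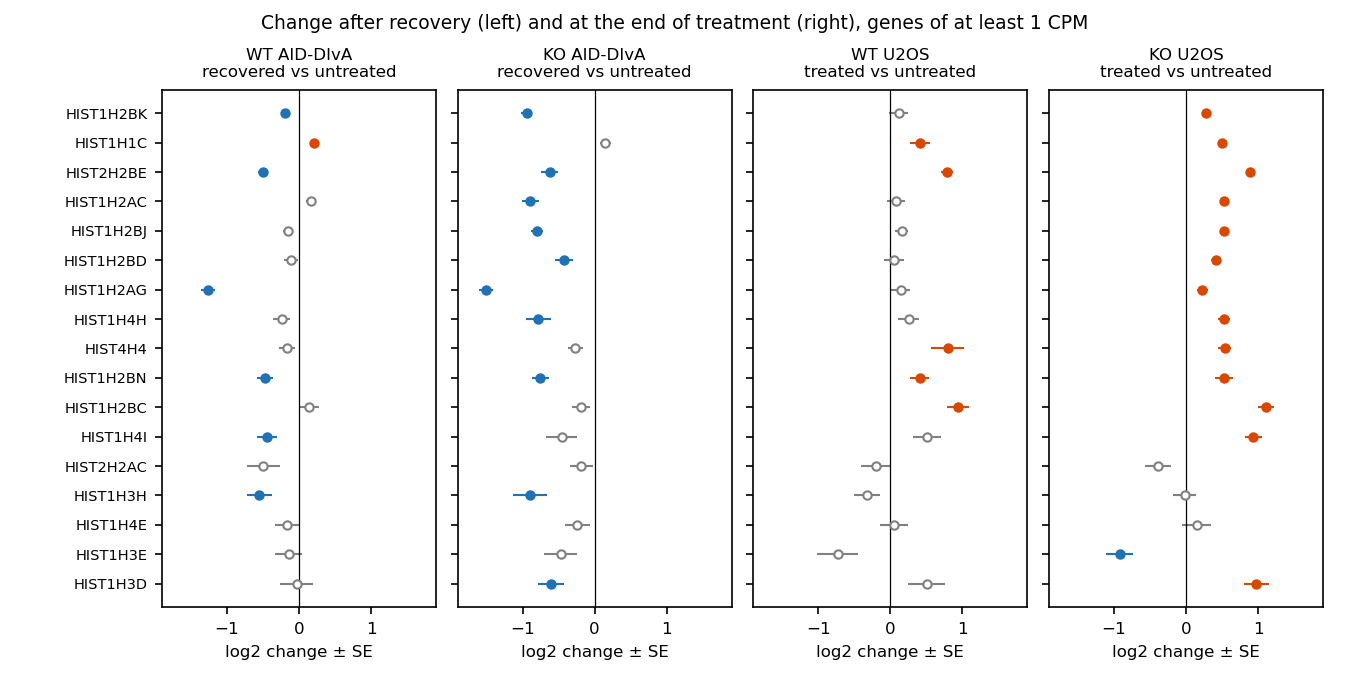
Log2 change ± SE (horizontal axis) of the 17 histone genes of at least 1 CPM in recovered against untreated AID-DIvA cells (left 2 panels) and in treated against untreated U2OS cells (right 2 panels), each from 6 libraries; filled points passed the test (blue lower, orange higher) and open points did not. Of the 17, 6 fell and 1 rose in recovered WT cells, beside 23.0% and 23.9% of all genes tested. In recovered KO cells 10 fell and none rose, beside 19.9% and 20.2%. In treated WT cells 5 rose and none fell, beside 26.0% and 22.9%. In treated KO cells 13 rose and 1 fell, beside 35.8% and 34.0%.

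The U2OS libraries show the histone genes before recovery. In KO cells 16 of 32 tested histone genes rose after treatment, 1 fell and 15 did not pass the test, beside 35.8% of 21176 genes that rose and 34.0% that fell. In WT cells 7 of 33 rose and none fell, beside 26.0% of 21797 genes that rose and 22.9% that fell. The share of 21.2% in WT cells was close to that of all genes. A single histone gene fell in WT cells at an unadjusted p below 0.05, and none with DESeq2. Without replicate 1 of the untreated WT cells, 14 of 33 histone genes rose in WT cells and 1 fell, beside 33.9% and 32.5% of 22423 genes. All 7 genes that rose in WT cells were among the 16 of KO cells, but the share of all genes that rose in both genotypes is not given. The median log2 change of the tested histone genes was 0.20 in WT and 0.38 in KO cells, beside 0.01 and 0.00086 for all genes.

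The largest rise was that of the linker histone gene HIST1H1E. It lay at 0.679, 0.405 and 0.357 CPM in untreated and at 3.56, 2.84 and 2.99 CPM in treated KO cells, a log2 change of 2.73 (SE 0.19, adjusted p = 1.8e-11, edgeR). In WT cells it lay at 0.449, 0.220 and 0.322 CPM untreated and at 1.68, 1.21 and 1.29 CPM treated, a log2 change of 2.09 (SE 0.29). The groups did not overlap in either genotype, although the untreated libraries held only 16 to 35 fragments of the gene. HIST1H1C rose as well, by 0.49 (SE 0.05) on the log2 scale in KO and by 0.41 (SE 0.14) in WT cells, where the high replicate 1 of the untreated cells, at 41.9 CPM, overlapped the lowest treated library, at 41.5 CPM. Without that replicate the log2 change in WT cells was 0.58 (SE 0.05) for HIST1H1C and 2.40 (SE 0.28) for HIST1H1E.

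Among H2B genes, HIST1H2BC lay at 2.19, 2.61 and 2.48 CPM in untreated and at 5.21, 4.89 and 5.60 CPM in treated KO cells, a log2 change of 1.11 (SE 0.11). Its log2 change in WT cells was 0.94 (SE 0.15). HIST2H2BE lay at 19.5, 19.9 and 20.6 CPM in untreated and at 34.3, 31.1 and 36.9 CPM in treated WT cells. In KO cells it lay at 23.5, 23.1 and 21.6 CPM untreated and at 41.3, 40.4 and 43.5 CPM treated. Its groups were well apart in both genotypes, with log2 changes of 0.78 (SE 0.08) in WT and 0.88 (SE 0.05) in KO cells. HIST4H4, an H4 gene on chromosome 12, rose by 0.80 (SE 0.23) in WT and by 0.54 (SE 0.09) in KO cells on the log2 scale. In WT cells the SE reflects replicate 1 of the untreated group, at 2.06 CPM beside 3.83 and 3.96 CPM. Without it the log2 changes in WT cells were 1.07 for HIST1H2BC, 0.77 for HIST2H2BE and 0.55 for HIST4H4.

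H3 genes moved in both directions. HIST1H3D, an H3 gene in the HIST1 cluster, rose in KO cells (log2 change 0.98, SE 0.17), and HIST1H3A, named after its values were seen, rose in both genotypes (1.42, SE 0.21, in KO and 1.53, SE 0.24, in WT cells, or 1.60 without replicate 1 of the untreated cells). HIST1H3E fell in treated KO cells, the single histone gene called lower in the test with all libraries. With the replicate block or without the filter on low counts 2 were called lower. The count was 2 without replicate 1 or 3 of the untreated or replicate 1 of the treated KO cells, and 3 without replicate 2 of the treated KO cells. HIST1H3E lay at 1.38, 1.33 and 1.68 CPM untreated and at 0.605, 0.898 and 0.802 CPM treated, a log2 change of -0.92 (SE 0.19). In WT cells its log2 change of -0.73 (SE 0.28) did not pass the test (adjusted p = 0.064, edgeR) with all libraries. It was -0.88 (SE 0.23, adjusted p = 0.00082, edgeR) without replicate 1 of the untreated cells.

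Genes whose model runs over 100 bases past the stem-loop made up most of the calls in KO cells. Of 13 such genes tested in treated KO cells, 11 rose, beside 4 of 16 genes whose model ends within 100 bases. In recovered KO cells 8 of 13 and 4 of 15 fell. Of all genes tested, 35.8% rose in treated KO cells and 19.9% fell in recovered KO cells. The levels, and with them the precision, also differed between these sets.

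Few changes were larger than 1 on the log2 scale. After recovery 2 histone genes fell that far in WT cells and none rose, beside 2.52% and 4.86% of all genes, and 2 fell in KO cells, beside 2.56%. At the end of treatment 2 rose that far in WT cells, beside 13.6%, and in KO cells 3 rose and none fell, beside 14.6% and 5.77%.

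**Figure D4:**
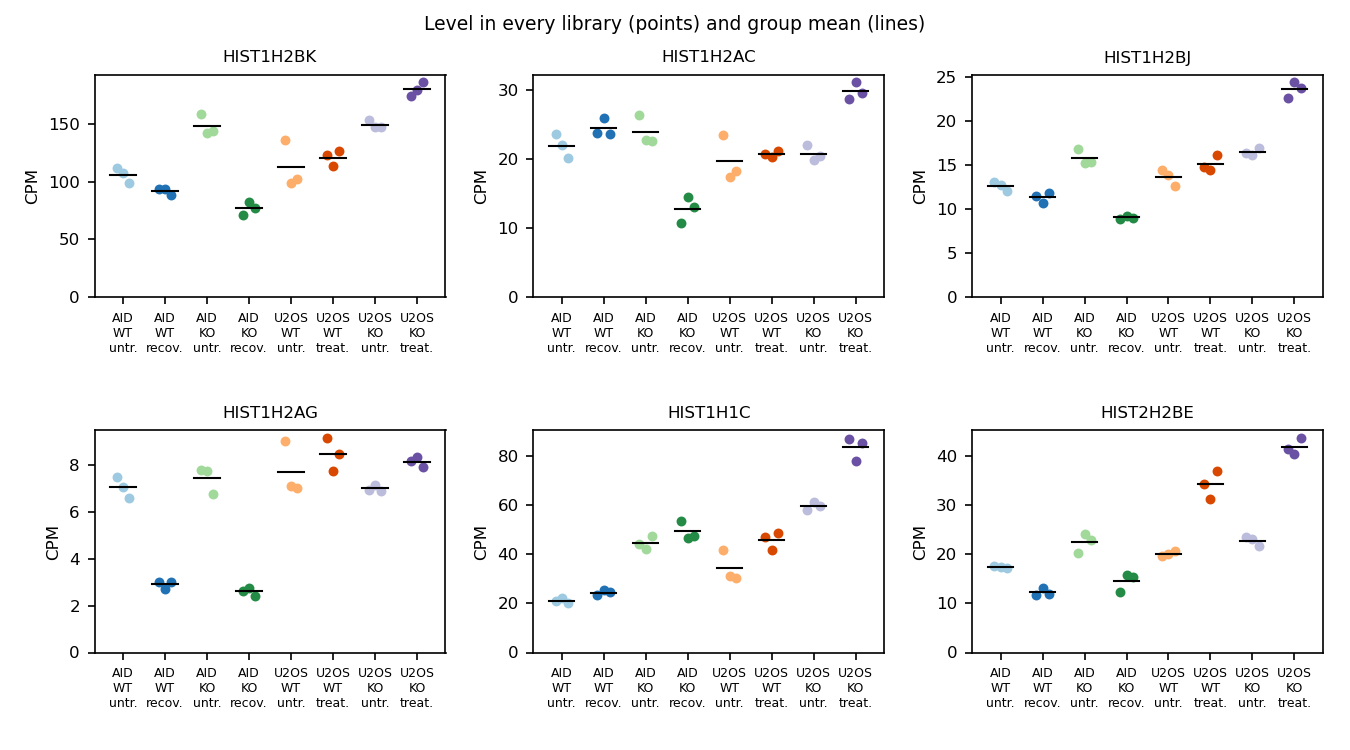
CPM (vertical axes, from 0) of 6 histone genes in every library of the 8 groups; points are libraries and lines group means. HIST1H2AG fell in recovered cells of both genotypes, HIST1H2BK, HIST1H2AC and HIST1H2BJ were lowest in recovered KO cells, and HIST1H1C and HIST2H2BE were highest in treated U2OS KO cells.

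The response after recovery was set against the response before recovery in a fit of all 24 libraries. The contrast is the log2 change of recovered AID-DIvA cells minus that of treated U2OS cells, so a negative value is a lower response after recovery, with stage and cell line label joined. In KO cells 20 of 35 tested histone genes had a lower response and none a higher response, beside 24.3% of 23087 genes that were lower and 21.7% higher. In WT cells 13 of 35 were lower and none higher, beside 22.8% and 22.6%. No histone gene was higher in either genotype at an unadjusted p below 0.05 or with DESeq2. HIST1H2BJ had the smallest adjusted p in KO cells, with a difference of -1.32 (SE 0.10, adjusted p = 5.7e-11, edgeR), and HIST2H2BE followed with -1.502 (SE 0.12). In WT cells HIST2H2BE differed by -1.28 (SE 0.12, adjusted p = 2.1e-09, edgeR) and HIST1H2AG by -1.40 (SE 0.14). Without replicate 1 of the untreated U2OS WT cells these differences were -1.25 and -1.52, and 13 and 21 of 37 histone genes were lower in WT and KO cells. In KO cells, 9 of 30 histone genes tested in both comparisons rose at the end of treatment and fell after recovery, against untreated cells of the same line, beside 5.05% of 19937 genes. These were HIST1H2AC, HIST1H2AG, HIST1H2BD, HIST1H2BJ, HIST1H2BK, HIST1H2BN, HIST1H3D, HIST1H4H and HIST2H2BE. In WT cells HIST1H2BN and HIST2H2BE did so (2 of 29, beside 4.09% of 20016 genes). Without replicate 1 of the untreated U2OS WT cells HIST1H2AG, HIST1H2BK and HIST1H4I did as well, but the share of all genes is not given for that setting. Leaving that library out also raised calls across all genes, with 33.9% against 26.0% higher in treated WT cells. The difference between lines was beyond -1 for 6 histone genes in WT and 16 in KO cells, beside 10.6% and 11.0% of all genes.

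Whether the response differed between the genotypes was tested as the response of KO minus that of WT cells, over 12 libraries per line. After recovery 3 of 32 tested histone genes had a lower response in KO cells and none a higher response, beside 0.451% and 0.762% of 21265 genes. These were HIST1H2BK (difference -0.74, SE 0.10, adjusted p = 0.0014, edgeR), HIST1H2AC (-1.05, SE 0.14, adjusted p = 0.0016, edgeR) and HIST1H2BJ (-0.64, SE 0.10, adjusted p = 0.0041, edgeR). HIST1H2BJ is named beyond the genes with the smallest adjusted p to complete the count. No histone gene had a higher response at an unadjusted p below 0.05 or with DESeq2. For HIST1H2AG, the divergent neighbour of HIST1H2BJ, the difference was -0.24 (SE 0.14, adjusted p = 0.53, edgeR). HIST1H1C had a difference of -0.06 (SE 0.10). Beyond -1 lay 1 histone gene, HIST1H2AC, beside 0.108% of all genes.

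Before recovery none of 35 histone genes passed the same test, beside 22647 genes of which 1.1% responded more positively and 1.06% more negatively in KO cells. At an unadjusted p below 0.05 there were 4, and DESeq2 called 1 higher. The differences were 0.37 (SE 0.10) for HIST1H2BJ and 0.45 (SE 0.14) for HIST1H2AC, with adjusted p = 0.091 and 0.13 (edgeR). Without replicate 1 of the untreated WT cells both were higher in KO cells (0.32 and 0.30), as was HIST1H2BF (0.95), making 3 of 35 histone genes beside 4.46% of 23164 genes.

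The sequence upstream of HIST1H2BK is shown beside the shared stretch above because its gene had the most significant of these differences. It fills the gap to the next gene, HIST1H2AH, at chr6:27146859-27147105 on the minus strand of GRCh38.p14 (RefSeq), and ends at the last base before the HIST1H2BK start. The stretch before HIST1H1C, whose difference was close to 0, is the last 200 bases before its start at chr6:26056471-26056670, minus strand. Capitals mark the motifs named above and CANNTG, the E box that E proteins, the partners of ID3, can bind.
HIST1H2BK: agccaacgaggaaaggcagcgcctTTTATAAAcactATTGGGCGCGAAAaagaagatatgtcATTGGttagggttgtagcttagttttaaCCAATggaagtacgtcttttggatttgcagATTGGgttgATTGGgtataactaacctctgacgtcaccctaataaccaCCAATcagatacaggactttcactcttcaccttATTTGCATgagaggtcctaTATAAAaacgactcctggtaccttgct
HIST1H1C: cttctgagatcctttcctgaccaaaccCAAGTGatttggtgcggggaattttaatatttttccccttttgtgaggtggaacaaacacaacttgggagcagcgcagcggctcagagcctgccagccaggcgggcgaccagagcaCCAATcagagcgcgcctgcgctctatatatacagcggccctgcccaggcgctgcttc
The HIST1H2BK stretch holds 6 matches to CCAAT, 3 to TATAAA, 1 to the octamer, 1 to TTTNGCGC and none to CANNTG. The HIST1H1C stretch holds 1 to CCAAT and 1 to CANNTG. The stretches differ in length, at 247 and 200 bases. Among the other genes whose response differed between genotypes after recovery, the motifs varied. HIST1H2AC had CANNTG but no TTTNGCGC in its RefSeq promoter, and HIST1H2BJ had TTTNGCGC but no CANNTG. The part of these motifs in the responses was not tested.

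Over the RefSeq promoters of 60 members (250 bases before to 50 after the start), the octamer was present in 35.0%, against 1.77% of 35116 promoters of all genes. It was found in 68.8% of H2A and 69.2% of H2B promoters, in 8.33% of H3 promoters and in none of H1 or H4. Promoters of some divergent H2A and H2B genes overlap, so the same match can count for both. The H3 match, in HIST1H3D, lies in a stretch that is also the promoter of the H2A gene HIST1H2AD. CCAAT was present in 83.3% of member promoters against 34.6% of all, and in 23.1% of those of H4 genes. TATAAA was present in 66.7% against 11.5%, and TTTNGCGC in 12 of the 60 against 1.79%. CANNTG was as frequent among members (68.3%) as among all promoters (68.7%). The motifs were searched on both strands, a match is letters only, and some matches overlap. The 15 other members had no promoter matched.

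Histone genes were compared between genotypes in untreated cells to describe the state before the drug. In AID-DIvA cells 10 of 32 tested histone genes were higher in KO cells and none lower, beside 18.6% of 20441 genes that were higher and 18.1% lower. In U2OS cells 1 of 32 was higher and none lower, beside 6.56% of 20621 genes higher and 8.63% lower. None was lower in either line at an unadjusted p below 0.05 or with DESeq2. Without replicate 1 of the untreated U2OS WT cells, 9 were higher and none lower, beside 20.5% and 20.6% of 20973 genes. Beyond a log2 difference of 1 lay 2 genes in AID-DIvA and none in U2OS cells, beside 2.27% and 1.42% of all genes. HIST1H1C was higher in KO cells of both lines. In AID-DIvA cells it lay at 44.1, 42.0 and 47.3 CPM in KO against 21.1, 22.1 and 20.1 CPM in WT cells, a log2 difference of 1.05 (SE 0.06, adjusted p = 1.8e-09, edgeR). In U2OS cells it lay at 57.9, 61.1 and 59.6 CPM in KO against 41.9, 31.2 and 30.5 CPM in WT cells (log2 difference 0.78, SE 0.13, adjusted p = 0.0066, edgeR, and 0.95, SE 0.04, without replicate 1 of the WT cells). The genotypes did not overlap in either line. HIST1H2BK was higher in AID-DIvA KO cells by 0.46 (SE 0.05, adjusted p = 5.2e-06, edgeR). In U2OS cells its log2 difference of 0.41 (SE 0.13) did not pass the test with all libraries and was 0.58 (SE 0.04) without replicate 1 of the WT cells.

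Of the regulators of these genes, NPAT (ENSG00000149308.12, chromosome 11, 108027942 to 108093369 on GRCh37) differed between the genotypes in both lines. It lay at 35.6, 34.0 and 30.9 CPM in untreated AID-DIvA KO cells against 12.1, 10.3 and 12.7 CPM in WT cells. In U2OS cells it lay at 23.8, 23.5 and 25.5 CPM in untreated KO against 6.64, 8.91 and 9.72 CPM in WT cells. All KO libraries were above all WT libraries, with log2 differences of 1.49 (SE 0.07, adjusted p = 3.4e-10, edgeR) and 1.52 (SE 0.14, adjusted p = 0.00051, edgeR). Without replicate 1 of the U2OS WT cells the latter was 1.39 (SE 0.07). NPAT did not pass the test in any of the 4 treatment comparisons.

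The genes around NPAT moved with it. From 12 Mb before to 9 Mb after the NPAT start (chromosome 11, 96093369 to 117093369), bounds set after seeing the values, 72 genes averaged at least 1 CPM. Their median log2 ratio of KO to WT means in untreated cells was 1.30 in AID-DIvA and 1.05 in U2OS cells. In 57 of the 72 every KO library was above every WT library in both lines (79.2%), against 16.3% of 15591 genes of the genome at that level. ATM, named after its values were seen, is the checkpoint kinase gene that points away from NPAT, and its ratios were 1.52 and 1.43. The models of NPAT and ATM overlap at their starts on opposite strands, where counts from either strand cannot separate them. The rest of chromosome 11 had medians of 0.06 and 0.02. In the stretch of chromosome 6 that spans the HIST1 members (25726291 to 27861669), 20 other genes had medians of -0.07 and -0.10, and none had all KO above all WT libraries in both lines. The 14 HIST1 members of at least 1 CPM had medians of 0.29 and 0.21, and 5 of them did. DNA copy number of the KO lines was not analysed here, and its part in the raised levels of the stretch was not tested. The part of NPAT, or of the chromosome 11 stretch, in the histone levels was not tested either.

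**Figure D5:**
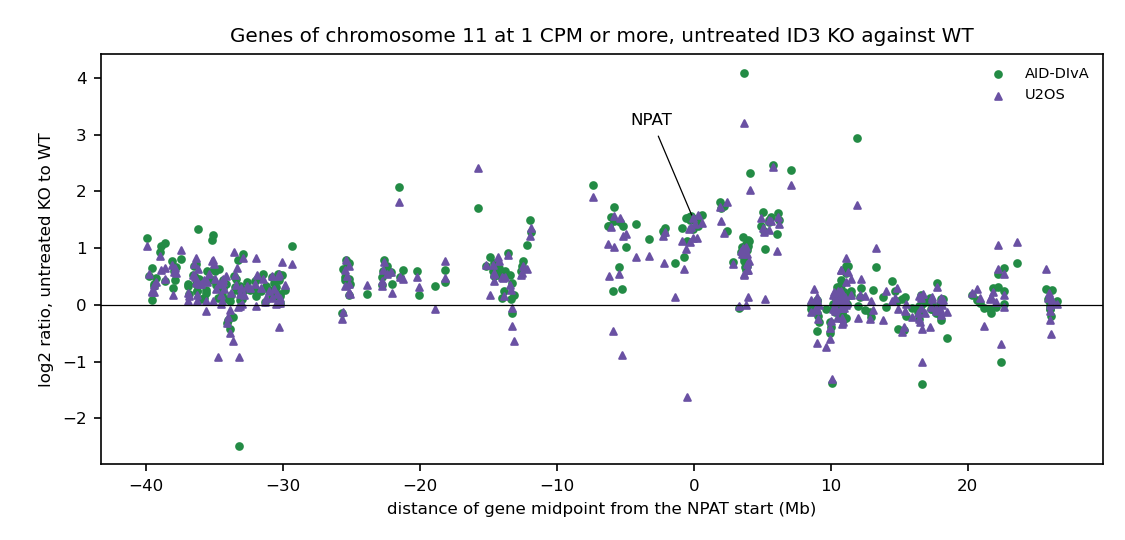
Log2 ratio of untreated KO to untreated WT group means (vertical axis) of genes of chromosome 11 that averaged at least 1 CPM, against the distance of the gene midpoint from the NPAT start in Mb; circles are AID-DIvA and triangles U2OS cells. NPAT (1.52 and 1.53 on this scale) lies within a stretch of raised ratios, and most points more than 10 Mb to its right lie near 0.

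Of the other regulators, SLBP, the stem-loop binding protein, fell in treated U2OS WT cells (log2 change -0.40, SE 0.10) and had a log2 change of -0.05 (SE 0.05) in KO cells, and the difference of these changes did not pass the test (0.35, SE 0.12, adjusted p = 0.17, edgeR). It passed without replicate 1 of the untreated WT cells (0.24, SE 0.07, adjusted p = 0.020, edgeR). LSM11 fell by 0.46 in treated U2OS KO cells and rose by 0.20 in recovered WT cells, and CASP8AP2 fell by 0.27 in treated U2OS KO cells. HINFP was lower in untreated KO cells of both lines, with log2 differences of -0.28 in AID-DIvA and -0.30 in U2OS cells. Over a list of 17 genes of histone gene expression, 6 rose and 2 fell in recovered WT cells, 3 rose and 2 fell in recovered KO cells, 2 rose and 6 fell in treated WT cells, and 4 rose and 9 fell in treated KO cells. Of all genes tested, 23.9%, 20.2%, 26.0% and 35.8% rose and 23.0%, 19.9%, 22.9% and 34.0% fell in these comparisons, in the same order. Without replicate 1 of the untreated WT cells, 3 of the 17 rose and 11 fell in treated WT cells, beside 33.9% and 32.5% of all genes. POU2F1 fell in recovered cells, by 0.43 in WT and by 0.45 in KO cells.

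Genes of DNA replication mostly fell at the end of treatment. Of a list of 26, none rose and 20 fell in treated U2OS WT cells, and none rose and 21 fell in KO cells. After recovery 14 rose and 5 fell in WT cells, and 9 rose and 4 fell in KO cells. MCM5, a subunit of the replicative helicase, fell by 1.61 in treated WT and by 1.67 in treated KO cells on the log2 scale, whereas RRM2, a subunit of ribonucleotide reductase, fell by 0.81 in recovered WT and by 0.98 in recovered KO cells. Of 11 replication-independent histone genes, 9 fell and none rose in recovered WT cells, and 7 fell and none rose in recovered KO cells. CENPA, the centromeric H3, fell by 0.96 in WT and by 1.12 in KO cells. At the end of treatment 1 of the 11 rose and 5 fell in WT cells (3 and 6 without untreated replicate 1) and 2 rose and 6 fell in KO cells, with H1F0, the linker histone of resting cells, rising by 0.50 and 0.59. Of 13 histone chaperones, 9 fell in treated WT and 10 in treated KO cells and none rose. After recovery 5 fell and 3 rose in WT cells and 3 fell and 1 rose in KO cells, with ASF1B falling by 0.62 and 0.80. Beside these counts stand 22.9% and 34.0% of all genes that fell and 26.0% and 35.8% that rose in treated WT and KO cells, and 23.0% and 19.9% that fell and 23.9% and 20.2% that rose in recovered WT and KO cells.

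The pattern of the summed level over the 8 groups was followed most closely by HIST1H2BJ (Pearson's r = 0.97 of log2 CPM over the 8 group means), HIST1H3D (0.97), HIST1H2BK (0.96), HIST1H4I (0.93) and HIST1H4E (0.92), as a description over points that share cell lines. HIST1H2BK is itself a large part of the sum. HIST1H3E was least like it (0.02). HIST1H4I lies within the intron of HIST1H2BK on the opposite strand, and only 55.8% of its stranded fragments were on its own strand, against 98.9% over all members.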

How the data were processed

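RNA of 24 libraries was sequenced as paired 100-base reads. Per the labels a stranded total RNA kit was used, and per the methods reads were aligned with STAR to hg19 (GRCh37) and counted with featureCounts. The authors deposited raw counts per gene for each library, from either strand and by strand, and the counts from either strand were used as deposited; their normalized columns were not used. Titles set the groups. The members, gene lists and tests were chosen with earlier results of these data known.

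Counts were tested with edgeR 4.0.16 (R 4.3.3, TMM scaling, its filter on low counts, robust quasi-likelihood fit, Benjamini-Hochberg adjustment over all genes tested, call at an adjusted p below 0.05) in 10 comparisons: recovered or treated against untreated cells, KO against untreated WT cells, the difference of responses between genotypes, and that between lines. DESeq2 1.42.0, other scalings and filters, strand counts and left-out libraries were alternatives. The scripts were tested on simulated data. CPM are scaled by TMM. Depth was 37878751 to 76906266 fragments, and intervals and floors cover counting error only. Genes were named by rule: the 2 highest per kilobase in each class, the 3 largest called changes per treatment comparison and direction, the 2 smallest adjusted p of the other comparisons, a fixed set of regulators, and the 5 genes most like the sum; others are said to be chosen after their values were seen. Near-identical family members can lose or exchange reads, so their counts are uncertain. Promoter sequences are RefSeq, GRCh38.p14; stem-loops were read from GRCh37.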

Additional observations from a re-analysis of the deposited data

Results flagged for a closer look

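Responses to mocetinostat differed between groups, by a test of the difference itself, for 3 of 32 histone genes between genotypes after recovery, and for 13 of 35 in WT and 20 of 35 in KO cells between recovered AID-DIvA and treated U2OS cells. Of the latter, the 2 with the smallest adjusted p in each genotype are given. After recovery the log2 change of KO minus WT AID-DIvA cells was -0.74 for HIST1H2BK, -1.05 for HIST1H2AC and -0.64 for HIST1H2BJ. Between recovered AID-DIvA and treated U2OS cells the log2 change differed in WT cells by -1.28 for HIST2H2BE and by -1.40 for HIST1H2AG. In KO cells it differed by -1.32 for HIST1H2BJ and by -1.502 for HIST2H2BE. Stage and cell line label cannot be told apart in the comparison between lines. Groups of 3 libraries were not searched for single libraries that stand apart in a gene.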

How the results depend on the processing

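No value of a named gene changed sign where the main or the alternative run called it. Sign changes of values called in neither run were not counted. Of the values of named genes, 1172 kept their side of the threshold, 22 passed it newly and 22 no longer passed it, and with a library left out these were 1620, 33 and 75. A log2 change beyond 1 left 0 higher and 2 lower histone genes in recovered WT cells, 2 lower in recovered KO cells, 2 higher in treated WT cells, 3 higher and 0 lower in treated KO cells, 2 and 0 higher in untreated KO cells of AID-DIvA and U2OS, 1 lower in the AID-DIvA genotype difference, and 6 lower in the WT difference between lines. DESeq2 called 4 lower in recovered WT cells, 2 higher in untreated U2OS KO cells and 1 higher in the U2OS genotype difference. Without the filter on low counts, 1 was lower in treated WT and 2 in treated KO cells, 2 were higher in untreated U2OS KO cells and 1 in the U2OS genotype difference. With all 4 groups of a line in 1 fit, 2 were lower in treated WT cells and 5 higher in untreated U2OS KO cells, and reverse-strand counts gave 2 there. The cause was not tested.

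Same-numbered replicates did not deviate together (correlations -0.17 to 0.12), so the numbers do not pair the libraries. With the replicate block 2 histone genes were lower in treated KO cells in place of 1, and no other count of calls moved by over 1.5 times.

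With 1 library left out, histone genes higher and lower numbered 0 to 2 and 6 to 10 in recovered WT cells, 0 and 12 to 14 in recovered KO cells, 4 to 14 and 0 to 1 in treated WT cells, and 16 to 17 and 1 to 3 in treated KO cells. Those higher in untreated KO cells numbered 7 to 9 in AID-DIvA and 1 to 9 in U2OS. The AID-DIvA genotype difference had 3 lower in every such fit and that in U2OS 0 to 3 higher. The differences between lines had 9 to 14 lower in WT and 18 to 21 in KO cells. Replicate 1 of untreated U2OS WT cells gave the upper ends of 14 and 9 and the 3 higher.

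Summed CPM moved by more than the spread with library totals in place of TMM, to 194 and 187 in recovered WT and KO cells, 296 in untreated AID-DIvA KO cells, and 319.5 and 462 in treated WT and KO cells. With reverse-strand counts it was 195 and 190 (189.97) in recovered WT and KO cells, 293 in untreated AID-DIvA KO cells, and 313 and 419 in untreated and treated U2OS KO cells. By class, library totals gave 50.98 and 92.2 for H1, 34.8 and 44.2 for H2A and 212 and 297 for H2B in treated WT and KO cells, 128 for H2B in recovered WT cells, and 12.4, 14.5 and 21.8 for H4 in untreated AID-DIvA WT, untreated AID-DIvA KO and treated KO cells. Reverse-strand counts gave 58.4, 30.9 and 205 for H1, H2A and H2B in untreated U2OS KO cells, 129 and 199 for H2B in recovered WT and untreated AID-DIvA KO cells, and 4.57 for H3 in untreated U2OS WT cells. For H4 they gave 9.53 and 11.3 in recovered and untreated AID-DIvA WT cells, 13.01 in untreated AID-DIvA KO cells, 13.1 in treated WT cells, and 12.5 and 17.04 in untreated and treated U2OS KO cells. Depth limits the 58 genes under 1 CPM, most of which did not pass the filter.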
